A study of Mus musculus with 9 samples.

Results

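The proteasome subunit genes were described across acRIP-seq libraries of wild-type mouse testis. A gene was taken as a member when its symbol was Psma, Psmb, Psmc, Psmd, Psme, Psmf or Psmg followed by a number and the annotation called it protein coding, which gave 48 members among 55401 genes. The germ-cell subunit gene Psma8 was among them. The study asked which polyadenylated RNAs carry N4-acetylcytidine (ac4C), a modified cytidine, by precipitating RNA with an antibody against it. There were 3 groups of 3 libraries, all from wild-type testis. Input libraries held poly(A) RNA that had seen no antibody, IgG libraries held poly(A) RNA recovered with a control immunoglobulin, and acRIP libraries held poly(A) RNA recovered with the ac4C antibody. The study's methods name ICR as the wild-type stock. The age of these mice, the number of animals behind a library and whether the replicates were separate precipitations are not given in the sources used here, so p-values measure the spread between these libraries, which may be technical. No group lacked acetylation, so the IgG libraries were the background of the precipitation.

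The proteasome degrades proteins marked with ubiquitin. Its 20S core is a barrel whose outer rings are built of alpha subunits (Psma) and whose inner rings are built of beta subunits (Psmb), a few of which cut peptide bonds. The 19S particle caps the core, and its ATPases (Psmc) unfold the substrate while its non-ATPase subunits (Psmd) bind ubiquitin and remove it. Activators (Psme) open the core in place of the 19S particle, Psmf1 is known as an inhibitor, and the chaperones Psmg1 to Psmg4 help to assemble the core. Developing sperm carry a variant, the spermatoproteasome, in which Psma8 takes the place of Psma7, and the activator Psme4 is known for its part in the removal of acetylated histones from spermatids. Lymphoid and interferon-treated cells use the immunoproteasome, with Psmb8, Psmb9 and Psmb10 as catalytic subunits.

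The transcription of many proteasome genes is known to answer to NFE2L1, which binds antioxidant response elements. RefSeq promoter windows on GRCm38.p6, 250 bases before to 50 bases after a start, were given for 40 of the 48 members (43 windows). In the lines that follow, capitals mark the matched letters, and the genes are catalytic subunits and activators that the results return to and whose windows held a match. The windows of the activators Psme1 and Psme2 held neither of these cores.
Psmb5 (chr14:54618024-54618052, minus strand): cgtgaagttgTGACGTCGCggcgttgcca
Psmb6 (chr11:70525338-70525366, plus strand): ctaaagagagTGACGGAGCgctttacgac
Psme3 (chr11:101316096-101316122, plus strand): ggcacaaggcCCGGAAGctccgacagc
Psme4 (chr11:30771712-30771738, plus strand): tggccccgccCCGGAAGtgacttgagg

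The Psmb5 and Psmb6 windows hold the core letters of an antioxidant response element, TGACNNNGC. On either strand, 6 of the 43 member windows (14%) and 12.4% of all 32851 RefSeq promoter windows had this match. A Psme4 window was among the 6. The Psme3 and Psme4 windows hold the ETS family core CCGGAAG, which was found in 15 of 43 member windows (34.9%, 14 genes) and in 8.86% of all windows. The Psme4 match reaches into the first bases of the gene as the deposited table draws it. The ETS core was singled out after the counts had been seen. Of the other motifs searched, the palindrome of nuclear respiratory factor 1 was in 16.3% of member windows and 4.6% of all windows, and the interferon response element was in 11.6% and 3.44%. The CCAAT box was in 32.6% and 37.4%, and the cAMP response half-site TGACGT, which overlaps the antioxidant core in Psmb5, was in 9.3% and 7.51%. The full cAMP response element and an NF-kB site were in none of the member windows and in 1.79% and 0.155% of all windows. These matches describe letters in the windows and are not binding sites.

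Total counts ranged from 22023925 to 31340090 in input, 14647542 to 18786779 in IgG and 16025779 to 18639134 in acRIP. The 18S rRNA gene Rn18s, whose RNA is known to carry ac4C, took 0.54 to 0.613% of counts in input, 5.14 to 5.57% in IgG and 9.35 to 10.6% in acRIP. Levels are given as FPKM, counts scaled to the length of merged exons and to the total count on genes, so they include that change in the total, whereas fold changes were scaled by TMM. Spermatid markers (Prm1, Prm2, Tnp1, Tnp2 and Acrv1) summed to 26000 to 29900 FPKM in input, and Leydig markers summed to 603 to 683 FPKM. Summed markers reached 58.2 to 63.4 FPKM for spermatogonia, 444 to 475 for spermatocytes, 224 to 233 for Sertoli cells and 14.3 to 14.9 for peritubular cells. The Sertoli marker Rhox5 was at 0 in all libraries, while Clu averaged 220 FPKM in input. Whole testis holds many cell types, so fewer cells of a type and less RNA per cell cannot be told apart.

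In input, transcripts of the proteasome were abundant, and together the 48 members took 0.814% ± 0.00254 of counts (SD, n = 3). Their median level was 36.6 FPKM ± 0.864 over the libraries (58.9 FPKM with the length of the longest transcript and 65.6 FPKM with that of the longest coding transcript), and 37 members averaged above 10 FPKM. Replicate libraries were close, with a median coefficient of variation of 3.29% over the 46 members that passed the filter on low counts. The largest, 34.1%, belonged to the chaperone gene Psmg3.

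The alpha ring held the highest member. Psma6, which encodes the alpha1 subunit, had 954, 963 and 936 FPKM in the 3 input libraries. That mean was 2.15 times the next one, since the ATPase gene Psmc3 had 450, 430 and 444 FPKM. The beta subunit gene Psmb6 followed with 266, 272 and 267 FPKM. The order of the latter pair depended on the length used. With the longest coding transcript Psmc3 had 617 to 645 FPKM and Psmb6 had 623 to 638 FPKM, which overlapped. By merged exon length, transcripts of a single complex ranged from 12.7 FPKM (Psma3) to 951 FPKM (Psma6) within the alpha ring. The ranges were 22 to 268 FPKM among the standard beta subunits and 28.2 to 442 FPKM among the ATPases. At 95% identity, copies elsewhere cover 40.1% of the Psma3 transcript and 97.4% of that of Psmb3, the lowest standard beta subunit. These low ends are therefore uncertain. The non-ATPase subunits ranged from 4.48 FPKM (Psmd3) to 142 FPKM (Psmd8).

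**Figure D1:**
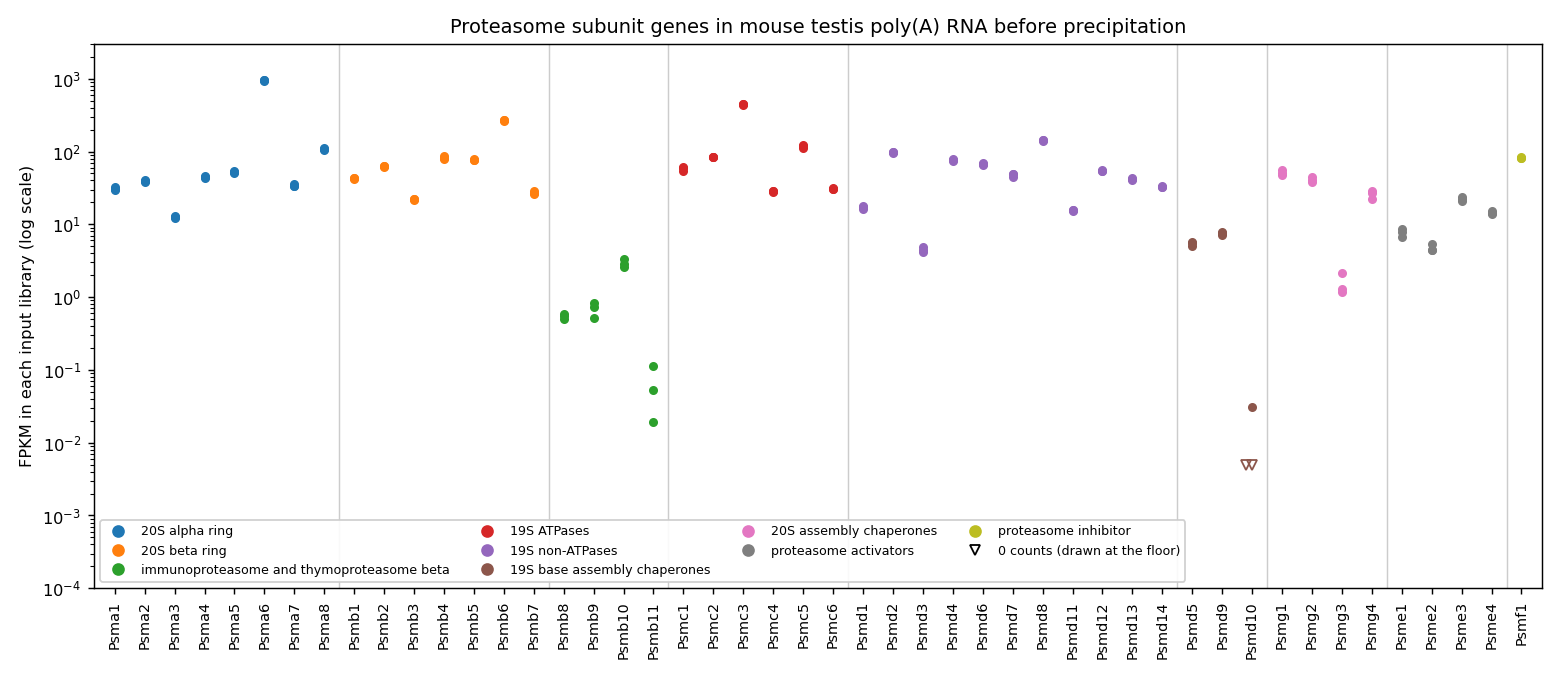
Level of each of the 48 members in the 3 input libraries (points), in FPKM on a log scale, ordered and coloured by role. Psma6, Psmc3 and Psmb6 stand highest, the immunoproteasome genes lie below most of the standard subunits, and Psmd10 has a count in 1 of the 3 libraries.

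Psma8 was the alpha4 subunit gene with the higher level in input. It had 108, 106 and 110 FPKM in input, against 35.7, 33.5 and 34.1 FPKM for Psma7, its ubiquitous counterpart. The input libraries of the pair did not overlap. Psma8 made up 75.1, 76 and 76.4% of the summed level of the pair (mean 66.8% with the length of the longest transcript and 63.6% with that of the longest coding transcript). In the precipitated libraries it made up less, 61.2% ± 1.44 in IgG and 61% ± 1.54 in acRIP (SD, n = 3). With the length of the longest coding transcript these were 46.7 and 46.5%, so which of the pair was higher after precipitation depended on the length used. Both precipitated groups lay below input without overlap, and they overlapped each other. An exact two-sided permutation test gave p = 0.1 for either group against input, the smallest p that 3 against 3 libraries allow, and p = 0.9 for acRIP against IgG. Adjusted over the 12 comparisons of paralog ratios these were 0.15 and 0.9.

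The catalytic subunits of the immunoproteasome were low beside the standard ones. Psmb8 had 0.557, 0.577 and 0.506 FPKM in input, from 43 to 59 counts a library. Its standard counterpart Psmb5, the chymotrypsin-like subunit, had 75.4, 79.2 and 75.6 FPKM, so Psmb8 stood at 0.712% ± 0.0372 of it (SD, n = 3). Psmb9 had 0.837, 0.72 and 0.517 FPKM, or 0.258% ± 0.0609 of Psmb6, the caspase-like subunit. Psmb10 was the highest of the 3, with 2.86, 2.61 and 3.38 FPKM, or 10.8% ± 0.914 of the trypsin-like Psmb7. These ratios move with the length used: with that of the longest coding transcript Psmb8 stood at 1.48% of Psmb5, Psmb9 at 0.298% of Psmb6 and Psmb10 at 4.76% of Psmb7. With the longest transcript of any kind they stood at 1.26, 0.169 and 11.7%. The lowest standard subunit, Psmb3, averaged 22 FPKM and was thus above all of them in every input library. About 14.7% of the merged exon bases of Psmb8 and 5.8% of those of Psmb9 are shared with a gene on the opposite strand, and the strand setting of the counting is not given in the sources used here. Psmb5 has a copy of 99% identity on chromosome 7 over nearly its whole transcript. The study's methods quantified uniquely mapped reads, so reads that match both places would be left out. The Psmb5 level may then be too low, and the Psmb8 percentage too high.

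Psmb11, the subunit of the thymus, had 8, 2 and 12 counts in input, 0, 0 and 2 in IgG and 0 in each acRIP library, and it did not pass the filter. Foxn1, the marker of the thymic epithelium that uses Psmb11, reached at most 0.0199 FPKM. The other untested member was Psmd10, a chaperone of the 19S base on the X chromosome. It had 1 count, in input replicate 3, over all 9 libraries. A count of 0 allows up to 3 counts. A search of the genome at 95% identity over at least 100 bases found no copy of Psmd10, and no other gene shares its exons. The cause of its low count was not tested.

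**Figure D2:**
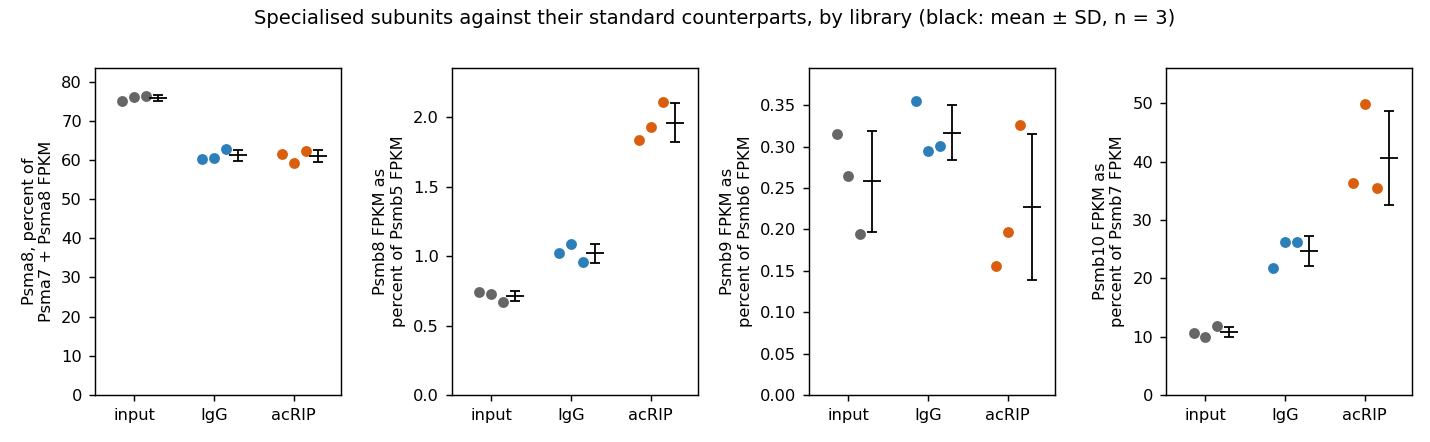
Level of Psma8 as a percentage of Psma7 and Psma8 together, and of Psmb8, Psmb9 and Psmb10 as a percentage of their standard counterparts, in each library of input, IgG and acRIP (points, with mean ± SD of 3 libraries in black). Psma8 is lower in both precipitated groups than in input, and the ratios of Psmb8 and Psmb10 are highest in acRIP.

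The 3 comparisons that follow share libraries with each other, so each gene's values are set side by side and no relation between the comparisons is drawn. A member was said to have risen or fallen when edgeR's quasi-likelihood test, fitted over 22510 genes, gave a Benjamini-Hochberg adjusted p under 0.05.

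The comparison with IgG sets a gene's share of the RNA recovered with the ac4C antibody against its share with the control antibody. The paper states that the recovered RNA was too dilute to quantify, so amounts recovered cannot be compared. Against IgG, 9 of 46 tested members (19.6%) rose and 21 (45.7%) fell. Over all genes tested, 26.4% rose and 37.6% fell. None of the members rose by over 2-fold and 1 fell by over 2-fold, against 11.5% and 20.9% of all genes. The median log2 fold change was -0.13 over the members and -0.09 over all genes. The changes of the members were small, and 40 of the 46 were within 0.5 of 0 on the log2 scale, beside 10355 of 22510 genes. With limma on log2(FPKM + 1), fitted over 35699 genes, 5 members rose. The shares of all genes that limma called were not counted, here or in the comparisons below.

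Against input, 17 members rose (37%) and 17 fell (37%), beside 32.0% and 40.3% of all genes. Those over 2-fold were 6 higher (13%) and 1 lower (2.17%), where all genes gave 17.7% and 22.9%. With limma the higher ones were 3, Psmb10, Psme3 and Psme4. The control antibody recovered many members unevenly too. In IgG against input, 23 members rose (50%) and 10 fell (21.7%), beside 25.9% and 26.0% of all genes. Of these, 4 were over 2-fold higher (8.7%) and 0 over 2-fold lower, beside 13.5% and 7.22%. With limma on log2(FPKM + 1), 2 of those 4, Psme3 and Psme4, remained over 2-fold.

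The study's rule for an acetylated mRNA asks for a rise over 2-fold against both IgG and input. By edgeR 0 members met it, beside 7.88% of all genes. The largest rise of a member over IgG was a log2 fold change of 0.65 (Psmb10). In the opposite direction 1 member was over 2-fold lower against both groups, beside 17.0% of all genes. That member was Psmd5. In each of the alternatives, DESeq2, limma and leaving out any library included, these counts were also 0 and 1.

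**Figure D3:**
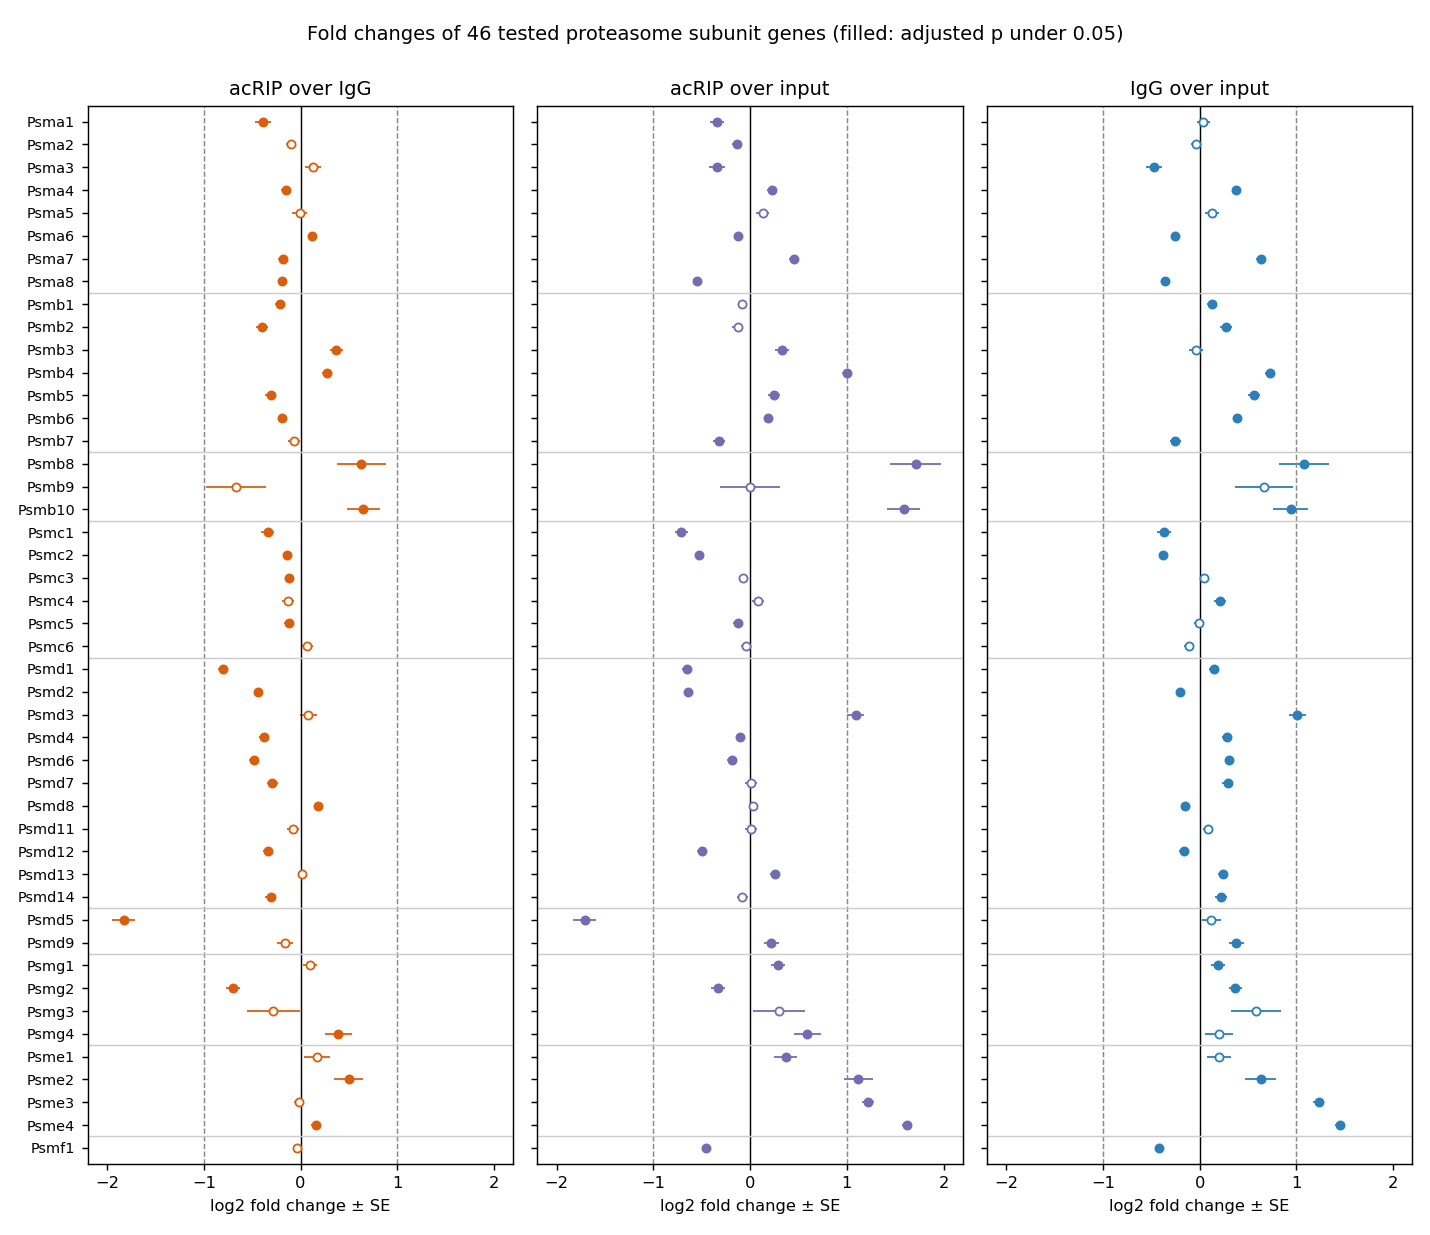
Log2 fold change ± SE of the 46 tested members in acRIP over IgG, acRIP over input and IgG over input, grouped by role with grey lines, with 2-fold limits dashed and filled points where the adjusted p is under 0.05. Over IgG all members but Psmd5 lie inside the limits, and in acRIP over input Psmb8, Psme4, Psmb10, Psme3, Psme2 and Psmd3 lie beyond the upper limit.

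Psmd5 encodes a chaperone that holds ATPases of the 19S base before it joins the core. It had 5.56, 5.09 and 5.76 FPKM in input, 6.09, 6.02 and 5.33 in IgG, and 1.87, 1.19 and 1.7 in acRIP. The acRIP libraries lay below all 6 others, while input and IgG overlapped. The log2 fold change was -1.83 ± 0.12 (SE) over IgG at an adjusted p of 5.55e-14 and -1.71 ± 0.12 over input (adjusted p = 1.88e-14), against 0.12 ± 0.1 for IgG over input (adjusted p = 0.363). Its gene lies on chromosome 2 from 34849734 to 34874968 (mm10, minus strand), has no near-identical copy and shares no exon with another gene. The other tested chaperone of the 19S base, Psmd9, gave -0.16 ± 0.08 over IgG, which did not pass (adjusted p = 0.0711).

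Among the 11 non-ATPase subunits of the 19S particle 7 fell and 1 rose over IgG, with a median log2 fold change of -0.31, where 37.6% of all genes fell and 26.4% rose with a median of -0.09. The scaffold subunit gene Psmd1 had 16.2, 17.4 and 18 FPKM in input, 18.7, 18.8 and 18.3 in IgG and 10.5, 10.3 and 10.2 in acRIP. The acRIP libraries of Psmd1 lay below all others, with -0.8 ± 0.05 over IgG at an adjusted p of 2.19e-13 and -0.65 ± 0.05 over input (adjusted p = 2.77e-12). Psmd2, another large scaffold of the base, fell by 0.44 and 0.64 on the log2 scale in the same comparisons, with 55.8, 63.7 and 57.6 FPKM in acRIP and 95.8, 97.9 and 98.4 FPKM in input. Psmd2 has a copy of 96.4% identity, Gm5422, which also fell. Psmd6 fell by 0.48 over IgG and by 0.19 over input. The exception was Psmd8, which rose by 0.18 over IgG, with 135, 139 and 136 FPKM in acRIP and 128, 123 and 124 FPKM in IgG.

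Of the 6 ATPases 4 fell over IgG and 0 rose, with changes from -0.34 to 0.07, beside the same 37.6% and 26.4% of all genes. Psmc1 had the largest fall. It went from 60.2, 61 and 54.6 FPKM in input to 45, 42.7 and 45.7 in IgG and 36.5, 34.7 and 30.5 in acRIP, without overlap between any of the groups. Its log2 fold change was -0.34 ± 0.07 over IgG at an adjusted p of 6.28e-05 and -0.71 ± 0.07 over input (adjusted p = 4.35e-11). Psmc3, the most abundant ATPase transcript, had 390, 407 and 401 FPKM in acRIP and 463, 457 and 426 FPKM in IgG. It fell by 0.12 over IgG, and its change of -0.07 over input did not pass (adjusted p = 0.0814). With upper quartile scaling this was turned round, as its change passed over input (-0.11, adjusted p = 0.00442) and no longer over IgG (-0.07, adjusted p = 0.08).

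The alpha ring moved little, with 1 of 8 members rising and 4 falling over IgG (26.4% and 37.6% of all genes) and all 8 within 0.5 of 0. Psma8 fell in each of the 3 comparisons. It went to 83.6, 81.3 and 82.6 FPKM in IgG and 68.2, 66.8 and 74.2 FPKM in acRIP, and the 3 groups did not overlap. The log2 fold change was -0.19 ± 0.04 over IgG (adjusted p = 0.000401), -0.55 ± 0.04 over input (adjusted p = 1.17e-12) and -0.36 ± 0.04 for IgG over input (adjusted p = 2.35e-08). Spermatocyte markers as a sum were also lowest in acRIP. The 5 of them summed to 444 to 475 FPKM in input, 438 to 458 in IgG and 345 to 363 in acRIP. Over IgG 5 of 5 fell and over input 4 of 5 fell, while 2 rose and 2 fell in IgG over input. Hspa2 gave most of the sum, with a mean of 271 FPKM in input and 212 in acRIP. Sycp1 went the other way from input, with 35.7 FPKM in input and 50.1 in acRIP. Sums of spermatogonia markers were lowest in acRIP too (37 to 43.1 FPKM, beside 50.1 to 52.5 in IgG). So were those of Sertoli markers (158 to 167 FPKM, beside 184 to 195 in IgG). Leydig sums overlapped between IgG (575 to 591 FPKM) and acRIP (538 to 588 FPKM). Spermatid markers went from 26000 to 29900 FPKM in input to 30800 to 33500 in acRIP. Peritubular markers went from 14.3 to 14.9 FPKM in input to 16.6 to 20.6 in acRIP. The part of any of these cell types in the change of Psma8 was not tested. Psma7 went the other way from input, with 55.3, 52.9 and 48.8 FPKM in IgG and 42.8, 45.8 and 44.8 FPKM in acRIP. It rose by 0.63 ± 0.05 in IgG and by 0.45 ± 0.05 in acRIP over input, and it fell by 0.18 in acRIP over IgG (adjusted p = 0.00335). Psma6 was the only member that rose over IgG (0.12 ± 0.03, adjusted p = 0.00104) and fell over input (-0.13 ± 0.03, adjusted p = 0.000582). It had 768, 780 and 800 FPKM in IgG and 818, 820 and 834 FPKM in acRIP. With limma on log2(FPKM + 1) the rise of Psma6 over IgG did not pass (0.07, adjusted p = 0.111).

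Of the 7 standard beta subunits 2 rose and 4 fell over IgG, where 26.4% of all genes rose and 37.6% fell. Psmb4 and Psmb3 rose. Psmb4, which encodes the beta7 subunit, had 86.8, 82.1 and 79 FPKM in input, 141, 135 and 126 in IgG and 159, 158 and 152 in acRIP. Its libraries rose from group to group without overlap, by a log2 fold change of 1 ± 0.05 over input and 0.27 ± 0.05 over IgG (adjusted p = 1.03e-05). Psmb3 rose by 0.37 ± 0.07 over IgG and 0.33 ± 0.07 over input, and at 95% identity copies elsewhere cover 97.4% of its transcript.

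The catalytic subunits did not move alike. Psmb5 had 113, 117 and 103 FPKM in IgG and 87.5, 81.4 and 91 FPKM in acRIP, so that it fell by 0.31 over IgG at an adjusted p of 7.8e-05 and rose by 0.25 over input (adjusted p = 0.000586). With limma the rise of Psmb5 did not pass (adjusted p = 0.0537). Psmb6 went the same way, with 341, 345 and 342 FPKM in IgG and 284, 297 and 290 FPKM in acRIP. Psmb6 fell by 0.19 over IgG and rose by 0.19 over input. Psmb7 had 23.8, 22.2 and 21.5 FPKM in IgG and 21.3, 20.3 and 20.4 FPKM in acRIP. Its change of -0.07 over IgG did not pass (adjusted p = 0.315), and it fell by 0.32 over input.

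Among the specialised subunits, Psmb8 and Psmb10 rose over both groups and Psmb9 passed in neither. Psmb10 had 5.17, 5.81 and 5.65 FPKM in IgG and 7.76, 10.1 and 7.24 FPKM in acRIP, and the 3 groups did not overlap. It rose by a log2 fold change of 0.65 ± 0.17 over IgG at an adjusted p of 0.00137 and 1.59 ± 0.17 over input (adjusted p = 1.4e-09). Psmb8 had 1.15, 1.28 and 0.986 FPKM in IgG and 1.61, 1.57 and 1.92 FPKM in acRIP. It rose by 0.63 ± 0.25 over IgG at an adjusted p of 0.0272 and 1.71 ± 0.26 over input (adjusted p = 6.01e-07), and again no groups overlapped. The rise of Psmb8 over IgG depended on 2 libraries, since it no longer passed without acRIP replicate 3 (0.54, adjusted p = 0.094) or without IgG replicate 3 (0.53, adjusted p = 0.0919). Psmb9 had 1.21, 1.02 and 1.03 FPKM in IgG and 0.443, 0.586 and 0.945 FPKM in acRIP. Its values were -0.67 ± 0.31 over IgG at an adjusted p of 0.0584 and 0 ± 0.31 over input, from 26 to 58 counts in an acRIP library. The change of Psmb9 over IgG passed without acRIP replicate 3 (-1, adjusted p = 0.0119). It also passed, narrowly, with total count scaling (adjusted p = 0.0428), with at least 10 counts in each library (adjusted p = 0.0489) and with counts halved (adjusted p = 0.0469). Psmb9 and Psmb8 are neighbours on chromosome 17.

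Relative to their standard counterparts, Psmb8 stood at 1.02% ± 0.0673 of Psmb5 in IgG and 1.96% ± 0.141 in acRIP. Psmb10 stood at 24.7% ± 2.61 of Psmb7 in IgG and 40.6% ± 8.05 in acRIP (SD, n = 3). With the length of the longest coding transcript Psmb8 stood at 2.12 and 4.07% of Psmb5, and Psmb10 at 10.9 and 17.9% of Psmb7, in IgG and acRIP. Neither ratio overlapped between any of the groups, and the exact permutation p was 0.1 for each comparison, the smallest possible (0.15 adjusted over 12 comparisons). Psmb9 stood at 0.317% ± 0.0333 of Psmb6 in IgG and 0.227% ± 0.0885 in acRIP, and its ratio overlapped between the groups.

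The immunoproteasome is a feature of immune cells, and markers of macrophages and lymphocytes (Ptprc, Adgre1, Cd68, Csf1r and Cd3e) summed to 4.21 to 5.57 FPKM in input, 4.8 to 7.14 in IgG and 0.563 to 1.27 in acRIP. Of these 5 markers 4 were tested, of which 3 fell (Adgre1, Cd68 and Csf1r) and 1 rose (Ptprc) in acRIP over IgG. Cd3e was at 0 in every IgG and acRIP library. The sum followed mostly Cd68, with a mean of 4.27 FPKM in IgG and 0.199 in acRIP, while Ptprc had 0.0541 and 0.228. Levels in IgG and acRIP are those of recovered RNA. The part of immune cells in the values of Psmb8, Psmb9 and Psmb10 was not tested.

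Of the 4 activators Psme3 and Psme4 were high over input with both antibodies, and Psme1 changed least. All 4 rose in acRIP over input, where 32.0% of all genes rose, and 3 of 4 rose in IgG over input, where 25.9% of all genes did. Psme4, the activator known from spermatids, had 13.9, 14.5 and 15.4 FPKM in input, 37.6, 39.3 and 40.5 in IgG and 41.3, 40.6 and 45.4 in acRIP. The input libraries of Psme4 lay far below the rest, with a log2 fold change of 1.62 ± 0.05 for acRIP over input (adjusted p = 4.13e-24) and 1.45 ± 0.05 for IgG over input (adjusted p = 7.19e-23). Over IgG the rise was 0.16 ± 0.05 (adjusted p = 0.00223), and with limma on log2(FPKM + 1) it did not pass (adjusted p = 0.171).

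Psme3, which forms an activator found mainly in the nucleus, had 23.4, 21.1 and 22 FPKM in input, 49.1, 54.1 and 49.9 in IgG and 50.8, 48.1 and 47.4 in acRIP. IgG and acRIP overlapped, and both lay above input. Psme3 rose by 1.22 ± 0.06 in acRIP and 1.23 ± 0.06 in IgG over input, while its change over IgG was -0.02 ± 0.05 (adjusted p = 0.809), of either sign with other scalings. Psme4 and Psme3 are among the 14 members whose promoter windows held an ETS core. Others of the 14 went either way over input, as Psmd13 and Psmg1 rose while Psmc1, Psmc2 and Psmd2 fell. A relation of the core to recovery was not tested.

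Psme1 and Psme2 encode the partners of the interferon-induced activator. Psme2 had 4.5, 4.5 and 5.36 FPKM in input, 8.05, 7.36 and 6.34 in IgG and 9.62, 11.7 and 8.18 in acRIP. Psme2 rose by 1.12 ± 0.15 over input (adjusted p = 1.2e-07) and 0.5 ± 0.15 over IgG (adjusted p = 0.0054). Without acRIP replicate 2 the change over IgG was 0.35 and did not pass (adjusted p = 0.0695), nor did it with limma (adjusted p = 0.0509). A copy of 99.4% identity on chromosome 11, Psme2b, covers 82.5% of the Psme2 transcript and had 0 counts in all libraries. The Psme2 counts are thus uncertain and may be too low. Psme1 had 6.67, 8.69 and 7.81 FPKM in input and 10.2, 9.71 and 8.37 FPKM in acRIP, which overlapped. Psme1 rose by 0.37 ± 0.12 over input (adjusted p = 0.00843), though not without input replicate 1 (0.28, adjusted p = 0.0726), and its 0.17 ± 0.13 over IgG did not pass (adjusted p = 0.249).

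**Figure D4:**
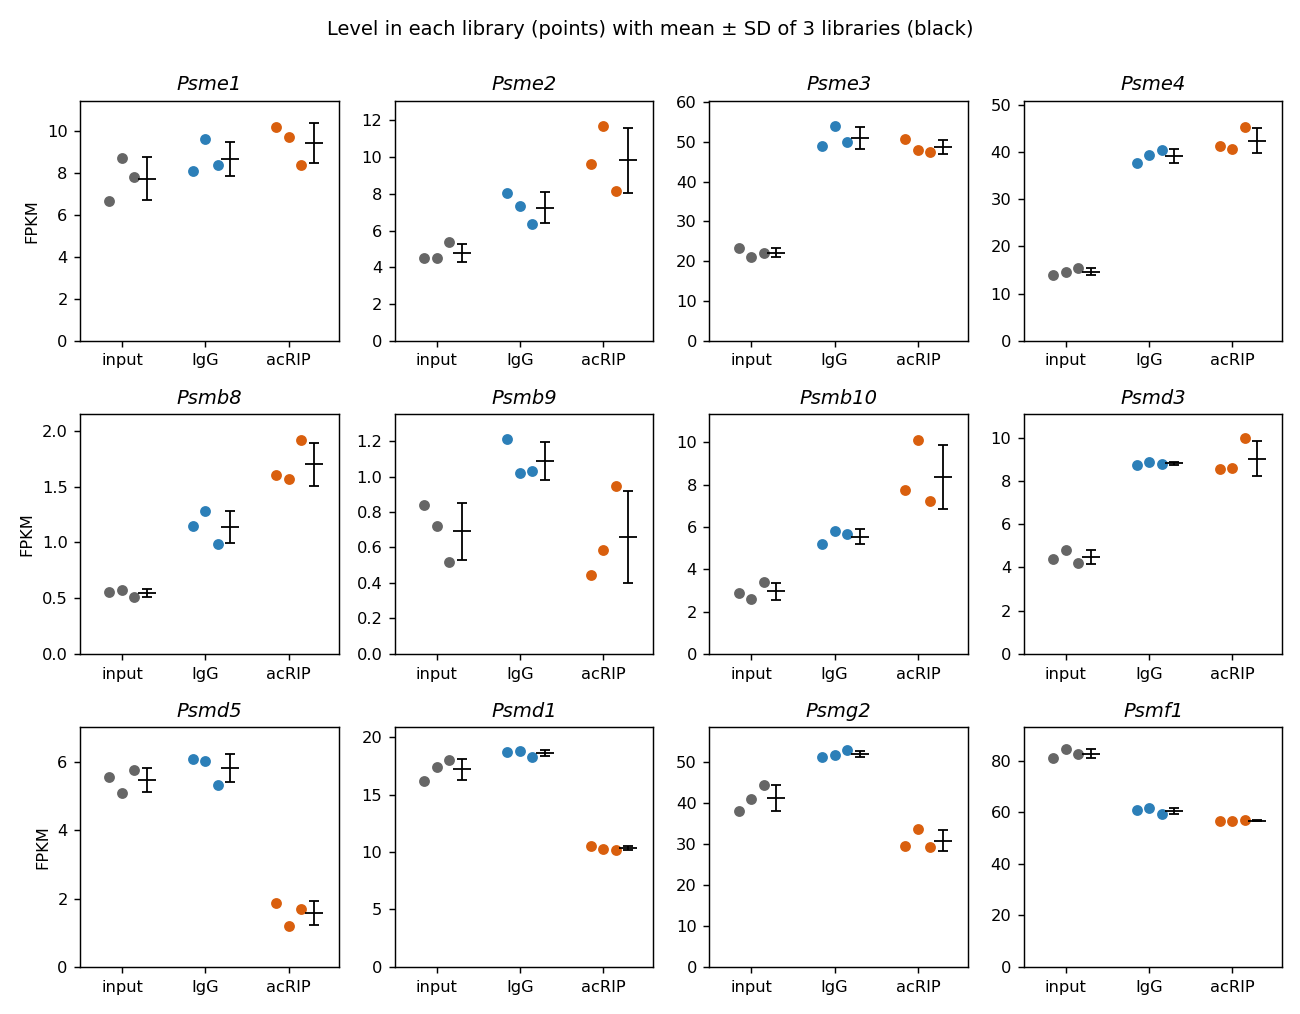
FPKM of 12 members in each library of input, IgG and acRIP (points), with the mean ± SD of 3 libraries in black and each vertical axis starting at 0. Psmd5, Psmd1 and Psmg2 are lowest in acRIP, Psme3, Psme4 and Psmd3 are high in IgG and acRIP alike, and Psmb8 and Psmb10 climb from input to IgG to acRIP.

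The inhibitor gene Psmf1 was at 81, 84.7 and 82.7 FPKM in input, 60.9, 61.7 and 59.2 in IgG and 56.6, 56.8 and 57.1 in acRIP. The groups did not overlap. Psmf1 fell by 0.46 in acRIP and by 0.42 in IgG over input, with an SE of 0.04 for each, and its change of -0.04 over IgG did not pass (adjusted p = 0.313). On the scale of total counts it did, at -0.09 (adjusted p = 0.0301). Psmd3, a lid subunit gene, was also high with both antibodies. It had 4.39, 4.82 and 4.22 FPKM in input, 8.74, 8.89 and 8.8 in IgG and 8.54, 8.59 and 9.97 in acRIP. Psmd3 rose by 1.09 ± 0.09 in acRIP and 1.01 ± 0.09 in IgG over input, and its 0.08 ± 0.09 over IgG did not pass (adjusted p = 0.4).

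Of the 4 chaperones of the 20S core 1 fell and 1 rose over IgG, where 37.6% of all genes fell and 26.4% rose. Psmg2 had 38.2, 41.1 and 44.6 FPKM in input, 51.4, 51.9 and 53 in IgG and 29.5, 33.8 and 29.4 in acRIP. It fell by 0.7 on the log2 scale over IgG (SE 0.07, adjusted p = 6.81e-10) and by 0.33 over input (adjusted p = 9.58e-05), with no overlap between groups. Its partner Psmg1 gave 0.1 ± 0.07 over IgG, which did not pass (adjusted p = 0.221). Psmg4, which pairs with Psmg3, had 27.4, 23.9 and 35.9 FPKM in IgG and 36.8, 37.8 and 35.9 FPKM in acRIP. It rose by 0.39 ± 0.14 over IgG (adjusted p = 0.0161), but not without IgG replicate 1 (0.35, adjusted p = 0.059) or IgG replicate 2 (0.26, adjusted p = 0.13), and not with limma (adjusted p = 0.103).

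Members that were higher over input tended to be GC-rich. Across the 46 tested members, the log2 fold change of acRIP over input had a Spearman rho of 0.58 (Pearson r = 0.42) with the GC content of the transcript and of -0.41 (r = -0.38) with the input FPKM. For IgG over input the rho with GC content was 0.49 (r = 0.4). For acRIP over IgG it was 0.24 (r = 0.25) with GC content and 0.23 (r = 0.22) with the share of cytidine. These are descriptions across genes, which share libraries and are not independent replicates. Psme4 departed from the trend, with a GC content of 43.9% and a high change over input, and Psmd3 had the highest GC content of all members, 58.3%.

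**Figure D5:**
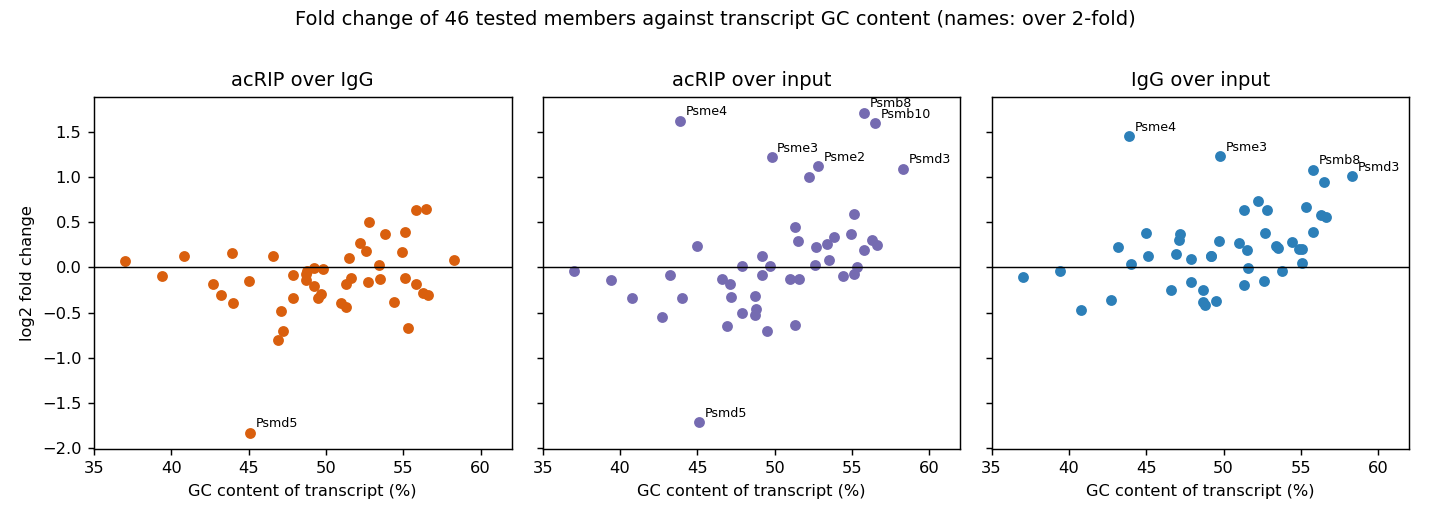
Log2 fold change of the 46 tested members in each comparison against the GC content of the transcript in percent, with members over 2-fold named. The points tend to rise with GC content in both comparisons with input, and over IgG they scatter around 0 apart from Psmd5.

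A list of 34 other genes of the ubiquitin and proteasome pathway, all of them tested, was set beside the members. It held partners of the proteasome outside the naming rule, ubiquitin genes, ubiquitin-activating enzymes, the segregase Vcp with its cofactors, and regulators of proteasome genes. Over IgG 8 of the 34 rose and 13 fell, shares near the 26.4% and 37.6% of all genes. Over input 15 rose and 10 fell, where all genes gave 32.0% and 40.3%. The list's median log2 fold change was -0.02 over IgG and 0.14 over input. Higher by over 2-fold against both groups was Ubqln2, a shuttle that carries ubiquitinated proteins to the proteasome, with 0.305, 0.489 and 0.431 FPKM in input, 2.9, 2.39 and 2.19 in IgG and 5.75, 4.75 and 5.17 in acRIP. Its log2 fold changes were 1.12 ± 0.17 over IgG and 3.78 ± 0.21 over input. Lower by over 2-fold against both was Ddi2, the protease that activates NFE2L1, with 2.02, 1.62 and 2 FPKM in IgG and 0.327, 0.359 and 0.237 FPKM in acRIP. Ddi2 fell by 2.55 over IgG and by 1.7 over input on the log2 scale. Nfe2l1 itself averaged 4.69 FPKM in input and 4.57 FPKM in acRIP, and its changes of -0.16 over IgG and 0.04 over input did not pass.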

How the data were processed

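Poly(A) RNA of wild-type mouse testis was sequenced by Smart-seq2 as 3 input, 3 IgG and 3 acRIP libraries. The deposited table holds counts, the number of reads the authors assigned to each gene, and each gene's length over merged exons. The submitters' processing notes name Trim Galore 0.6.7, STAR 2.7.10a, featureCounts 2.0.2 and mm10. The sources used here give neither the annotation release nor the strand setting, and do not say if mates of a pair were counted apart. Counts of Ubqln2, Ptprc and Psmb11 were even in every library, as counting both mates would give, while Psmb8 had odd counts. Where mates were counted apart, there are fewer fragments than counts. With counts halved, 9 members rose and 22 fell over IgG. Genes were named by GENCODE vM21 through identifiers without version (55141 of 55401 matched), and all 48 members had the same coordinates there. FPKM was computed here from these counts, the lengths and the total on genes. Counts were tested with edgeR 4.0.16 in R 4.3.3 (filterByExpr, TMM, quasi-likelihood test, 1 mean per group, all 9 libraries), with adjusted p under 0.05 and a fold over 2. DESeq2 1.42.0 and limma 3.58.1 were alternatives, with other scalings, filters and each library left out. The code was tested on simulated data. Near-identical copies were sought by aligning member transcripts to GRCm38.p6 at 95% identity over at least 100 bases. Sequences are from RefSeq.

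The members and lists were chosen with earlier results of these data known. Genes described in full were the alpha4 pair, the catalytic subunits with their counterparts, the activators, Psmf1, the 5 highest and 5 lowest in acRIP over IgG and over input, the 3 highest and 3 lowest in input, and any called against both groups. Other members, among them Psmd3, Psmd8, Psmb4 and Psmg1, were named after their values were seen. Markers of spermatogonia, spermatocytes, spermatids, Sertoli, Leydig, peritubular, immune and thymic epithelial cells served as checks. An immune marker and some promoter motifs are not reported here.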

Additional observations from a re-analysis of the deposited data

How the results depend on the processing

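The call of Psmd5 against both groups and the rises of Psme3 and Psme4 over input stayed over 2-fold with edgeR, DESeq2 and limma. With limma on log2(FPKM + 1), which damps changes of low genes, 5 members rose over IgG, 3 were over 2-fold higher than input and 2 in IgG over input. The latter count was also 2 with upper quartile factors and with a test against a fold of 2. Shares over all genes were not counted for these alternatives. With DESeq2 or without a filter, 2 members were over 2-fold lower than input, since Psmb11 was then tested. With the length of the longest transcript in place of merged exons, the median input level was 58.9 FPKM and the Psma8 share was 66.8% in input, 50.3% in IgG and 50.1% in acRIP. With the longest coding transcript, chosen after seeing the data, they were 65.6 FPKM, 63.6%, 46.7% and 46.5%.

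Among the members described in full, changes of sign touched only values near 0 that had not passed. Signs of the other members were not compared. Psme3 over IgG became 0.03 with upper quartile factors, 0.01 with RLE factors, with TMM over protein-coding genes, without a filter and with the 6 libraries compared, and 0 with DESeq2. Psmb9 over input became 0.02 with RLE factors and with DESeq2, 0.03 with TMM over protein-coding genes, and 0.01 with the 6 libraries compared and with a minimum of 10 counts in each library. With upper quartile factors Psmf1 over IgG became 0.01 and Psmc3 in IgG over input became -0.04. The cause was not tested. Leaving out 1 library at a time gave 8 to 9 members that rose and 19 to 22 that fell over IgG, with 1 to 2 over 2-fold lower, Psmb9 being added without acRIP replicate 3. Over input 16 to 18 rose and 14 to 18 fell, with 5 to 7 over 2-fold higher. In IgG over input 21 to 25 rose, 10 fell and 3 to 5 were over 2-fold higher. Psme3 over IgG ranged from -0.05 to 0.03 and Psmb9 over input from -0.33 to 0.22.

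Replicate numbers are shared between groups by label, and the sources used here do not say if they mark a pairing. Deviations of same-numbered libraries correlated at -0.007 to 0.035, and those of differently numbered ones at -0.029 to 0.027. No shared deviation was seen, which cannot tell if same-numbered libraries came from the same RNA. With the replicate block 9 members rose and 22 fell over IgG, 17 rose and 17 fell over input, and 24 rose and 10 fell in IgG over input.

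Depth limits Psmb8, Psmb9, Psmb10, Psmb11 and Psmd10. Counts of 43 to 59 for Psmb8 in input leave wide errors, wider if mates were counted apart. The smallest exact p with 3 libraries a group was 0.1. Counts of Psmb5, Psme2, Psma5 and Psmd11 are uncertain, and may be too low, because near-identical copies cover much of their transcripts. FPKM moves with the Rn18s share.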
